A study of Mus musculus with 90 samples.

Results

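The inhibitor of NF-kB (IkB) family was described across all 15 treatment and time conditions of a two-colour microarray study of RAW 264.7 cells, a mouse macrophage line. Its 6 genes, Nfkbia, Nfkbib, Nfkbie, Bcl3, Nfkbiz and Nfkbid, were looked up by gene symbol among the 10698 genes named by the array's probes, and 5 of the 6 had a probe. These 5 genes were covered by 6 of the 16281 probes, with a pair for Nfkbiz. Nfkbid is not analysed here.

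Cells were treated with LPS+IFG (100 ng/ml lipopolysaccharide with 5 nM interferon gamma), LPS+2MA (100 ng/ml lipopolysaccharide with 500 µM 2-methyl-thio-ATP, an ATP analogue that acts on purine receptors), LPS (100 ng/ml, with 100 pM lipid binding protein), IFG (5 nM) or 2MA (500 µM). Each treatment lasted 1, 2 or 4 h, and each array set treated RNA against RNA of untreated cells cultured in media for the same time. The labels list lipid binding protein for LPS alone and not for the combinations. Every condition had 3 numbered sets of 2 arrays with the dyes swapped, which gives 90 arrays, and a replicate value averages both arrays of a set. All samples are of a single cell line. Nothing in the labels tells if sets came from separate cultures or if treatments shared untreated RNA. The p-values therefore rest on the spread between these sets, which may be technical.

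NF-kB is held in the cytoplasm of resting macrophages by the classical IkB proteins IkB-alpha (Nfkbia), IkB-beta (Nfkbib) and IkB-epsilon (Nfkbie). Engagement of the LPS receptor activates the IkB kinase, the inhibitors are degraded and NF-kB enters the nucleus, where it also raises genes of its own inhibitors. Bcl3 and IkB-zeta (Nfkbiz) are atypical members that act in the nucleus: Bcl3 binds homodimers of the p50 and p52 subunits, and IkB-zeta is an inducible cofactor that macrophages need for a set of secondary response genes such as Il6.

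The promoters of Nfkbia and Nfkbie are shown because NF-kB acts through the kappa-B motif. Both sequences are the 250 bases before the RefSeq start of the gene on GRCm38.p6, read 5′ to 3′ on the gene's strand, and capitals mark matches to the kappa-B consensus on either strand. The Nfkbia window is chr12:55492648-55492897 on the minus strand, before a gene that spans chr12:55489409-55492647. The Nfkbie window is chr17:45555450-45555699 on the plus strand, before a gene that spans chr17:45555700-45563169.
Nfkbia: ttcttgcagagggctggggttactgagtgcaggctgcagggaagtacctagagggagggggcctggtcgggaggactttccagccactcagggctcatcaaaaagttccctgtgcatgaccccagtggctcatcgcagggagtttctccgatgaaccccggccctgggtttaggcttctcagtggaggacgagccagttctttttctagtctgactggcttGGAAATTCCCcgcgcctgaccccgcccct
Nfkbie: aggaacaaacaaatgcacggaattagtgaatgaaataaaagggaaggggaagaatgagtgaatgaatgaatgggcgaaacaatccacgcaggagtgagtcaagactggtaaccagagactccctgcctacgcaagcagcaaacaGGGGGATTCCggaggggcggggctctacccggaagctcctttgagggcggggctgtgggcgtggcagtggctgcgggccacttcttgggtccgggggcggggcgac
The match in Nfkbia, GGAAATTCCC, began 29 bases before the start, and that in Nfkbie, GGGGGATTCC, began 106 bases before it. The windows of Nfkbib and Bcl3 held no match. That of Bcl3, chr7:19822756-19823005 on the minus strand, overlaps the gene's span, chr7:19808462-19822824, and precedes a start inside it. No window was available for Nfkbiz. Of 32851 windows of the same length in the RefSeq table, several of which can belong to a gene, 3.90% held at least 1 match. A match describes the letters of a window and does not show that the factor binds there.

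The deposited values are log2 ratios, taken here as treated over untreated, so 1 is a 2-fold difference. That direction is likely and not stated: with it, all 7 checked LPS-induced genes and all 5 measured IFG-induced genes had ratios above 0. Ratios hold no level, so the members cannot be ranked by abundance and the macrophage identity of the cells cannot be checked from levels. A larger share of responding cells and more RNA per cell cannot be told apart in such ratios. Ratios stopped at 6.64, a 100-fold ratio. Exact zeros, 7.84 to 17.0% of the values of an array, were treated as missing.

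Members of the family were higher in treated cells in 39 of 69 tested pairs of a member and a condition, and none was lower. A pair was called where limma's adjusted p was under 0.05 and the change at least 2-fold; 48 of 69 passed on the adjusted p alone. With LPS, 4 of 5 tested members rose at 1 h (1.05% of all features were called higher there), 3 of 4 at 2 h (1.87%) and 3 of 4 at 4 h (3.58%). IFG alone raised 1 of 5 at 1 h, where 0.377% of features rose, 1 of 5 at 2 h (1.12%) and 3 of 5 at 4 h (1.73%). In cells given 2MA, 1 of 5 members rose at 1 h against 0.278% of features, 2 of 5 at 2 h (0.351%) and 1 of 5 at 4 h (0.156%). LPS+IFG raised 3 of 5 members at 1 h (1.74% of features), 3 of 4 at 2 h (2.99%) and 5 of 5 at 4 h (4.48%). For LPS+2MA the counts were 2 of 4 at 1 h, beside 1.18% of features, 3 of 4 at 2 h (2.26%) and 4 of 4 at 4 h (4.59%). The median log2 ratio of the tested members lay between -0.10, with IFG at 1 h, and 3.02, with LPS+IFG at 2 h, while that of all features lay between -0.01 and 0.01 in every condition. Nfkbia had too few values to be tested in 6 of the 15 conditions, all with LPS in the treatment, so the members tested differ between conditions.

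**Figure D1:**
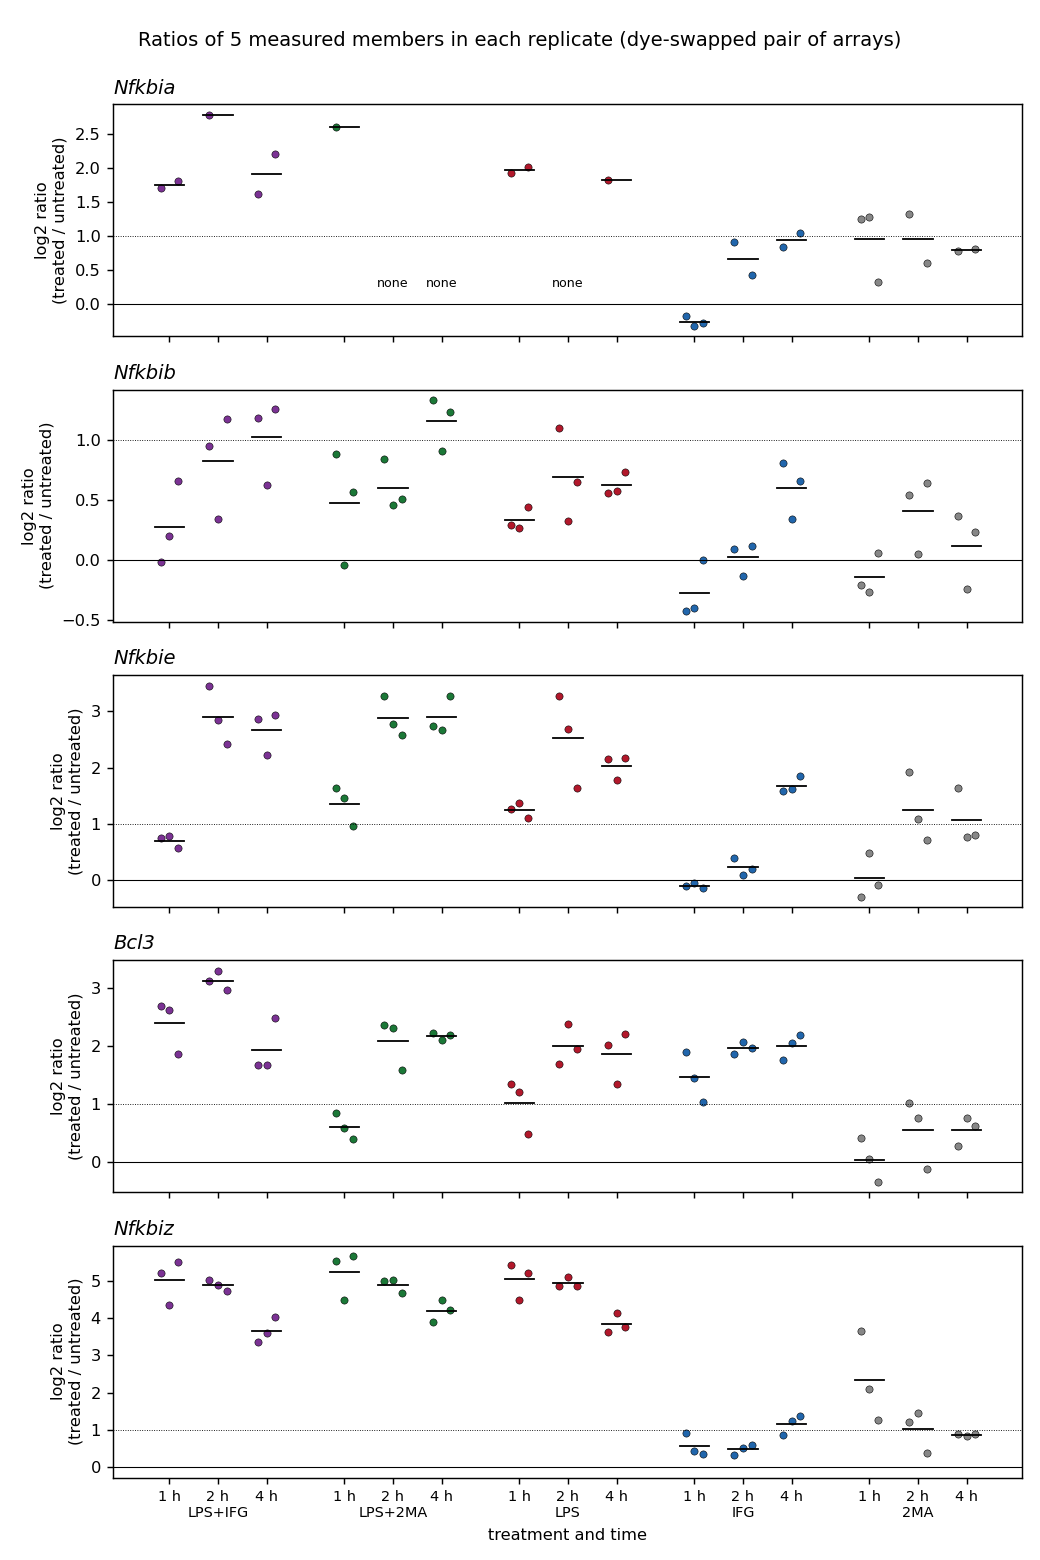
Log2 ratio of treated over untreated RNA (y axis) in every replicate (points) with the condition mean (bar), for LPS+IFG, LPS+2MA, LPS, IFG and 2MA at 1, 2 and 4 h (x axis); the dotted line is a 2-fold ratio and "none" marks conditions with no complete set. Nfkbiz stood between 3.35 and 5.67 in every replicate with LPS in the treatment, Bcl3 was near 2 with IFG at 2 and 4 h, and Nfkbie with IFG stood out from 0 at 4 h.

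Nfkbia encodes IkB-alpha, the inhibitor that is degraded and resynthesised fastest after NF-kB activation. With LPS at 1 h its complete sets gave log2 ratios of 1.92 and 2.02, a mean of 1.97 ± 0.07 (SD, n = 2; adjusted p = 2.9e-06 by limma), a 3.92-fold ratio. With exact zeros kept as values of 0 it was 1.31 and not called (adjusted p = 0.12 by limma). LPS+IFG at 1 h gave 1.70 and 1.81, a mean of 1.76 ± 0.07 (n = 2), and at 4 h 1.62 and 2.20, a mean of 1.91 ± 0.42 (n = 2). These are the 3 conditions in which Nfkbia was called. IFG gave -0.19, -0.33 and -0.29 at 1 h, 0.91 and 0.42 at 2 h, and 0.83 and 1.04 at 4 h. The IFG mean was thus slightly under 0 at 1 h and 0.94 at 4 h, short of 2-fold, with an adjusted p of 3.9e-03 by limma. From 1 to 4 h the IFG ratio rose by 1.20 (SE 0.26; adjusted p = 0.0105 by limma). With 2MA the means were 0.95 ± 0.55 (SD, n = 3) at 1 h, 0.96 ± 0.50 (n = 2) at 2 h and 0.79 ± 0.02 (n = 2) at 4 h, all under 2-fold. At 1 h of 2MA the sets gave 1.25, 1.27 and 0.32, and without the third the mean was 1.26 and passed the call.

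The Nfkbia probe was listed at exactly 0 on 32 of 54 arrays with LPS in the treatment (59.3%), against 4 of 36 arrays without LPS (11.1%). Of all 16281 probes, 9 had a gap between these shares at least as large, Nfkbia included. The zeros were unequal between sets as well: of 18 arrays with LPS, 4 were listed at 0 in set 1, 13 in set 2 and 15 in set 3. Arrays that did hold a value were high. LPS+IFG at 2 h had 2.68 and 2.88 on 2 of 6 arrays, LPS+2MA at 1 h had 2.45 and 2.76 on 2 arrays, and LPS at 2 h had 2.76 on 1 array. LPS at 4 h had 1.78 and 1.87, LPS+2MA at 4 h had 1.98 on 1 array, and all 6 arrays of LPS+2MA at 2 h were listed at 0. Why values are missing there was not tested, and these single values were not used in any test.

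**Figure D2:**
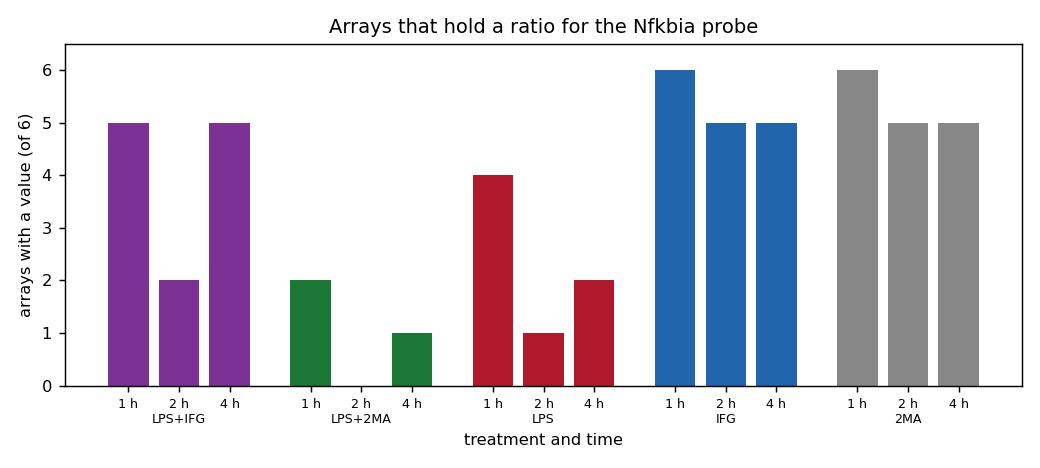
Number of arrays, of 6 per condition (y axis), that hold a ratio other than exactly 0 for the Nfkbia probe, by treatment and time (x axis). IFG and 2MA conditions held 5 or 6, whereas LPS+2MA at 2 h held 0 and LPS at 2 h held 1.

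Nfkbib encodes IkB-beta, which is resynthesised more slowly and is known for weaker induction by NF-kB. It was called in the 2 combinations at 4 h. LPS+IFG at 4 h gave 1.18, 0.62 and 1.25, a mean of 1.02 ± 0.34 (SD, n = 3; adjusted p = 2.1e-06 by limma), and LPS+2MA at 4 h gave 1.33, 0.91 and 1.23, a mean of 1.15 ± 0.22 (n = 3; adjusted p = 2.1e-07). LPS alone stayed under 2-fold, with means of 0.33, 0.69 and 0.62 over the 3 times. IFG moved from a mean of -0.27 at 1 h to 0.60 at 4 h, and 2MA means lay between -0.14 and 0.41. The call with LPS+IFG was at the 2-fold line: without set 1 its mean was 0.94 and without set 3 it was 0.90. With the spread of all arrays made equal, the means were 0.82 with LPS+IFG and 0.95 with LPS+2MA, both under 2-fold.

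The Nfkbib values rest on the dye swap. In all 45 sets the array with treated RNA in Cy5 was below 0 and its partner with treated RNA in Cy3 was above 0. Cy5 arrays averaged -1.30 (range -2.51 to -0.19) and Cy3 arrays 2.20 (1.25 to 3.42). The difference within a set was -3.50 ± 0.65 (SD, 45 sets), and 0.123% of 15410 probes had a larger mean difference in size. With treated RNA in Cy5 alone, the ratios at 4 h were -0.71 for LPS+IFG and -0.34 for LPS+2MA, so the direction of this gene depends on an equal weight of both orientations. The other members had mean differences between -0.28 and 0.09.

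**Figure D3:**
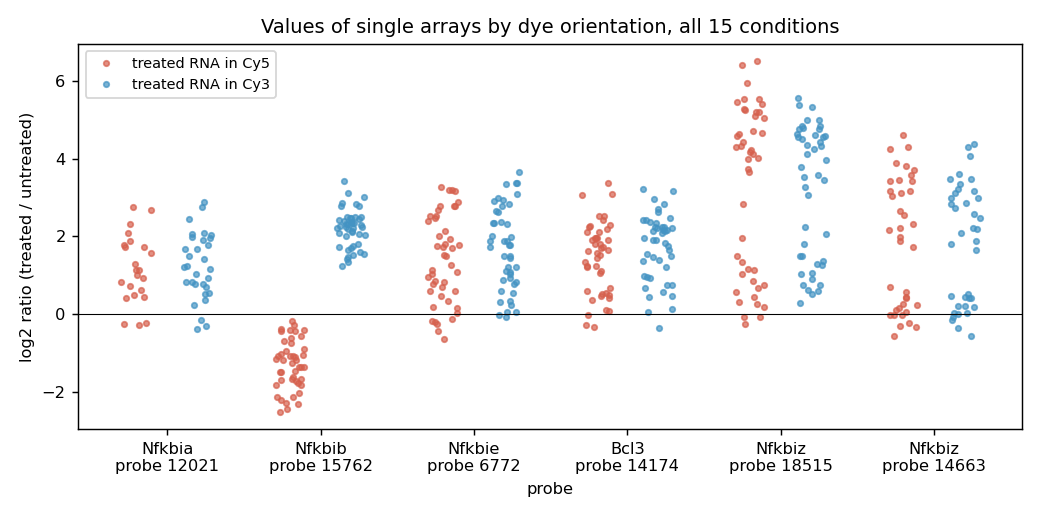
Log2 ratio of single arrays (y axis) for the 6 probes of the family (x axis), with treated RNA in Cy5 left and in Cy3 right, over all 15 conditions. The orientations overlap for every probe except that of Nfkbib, where all Cy5 arrays lie below 0 and all Cy3 arrays above it.

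Nfkbie encodes IkB-epsilon, a classical inhibitor known in mouse cells for induced negative feedback that comes later than that of IkB-alpha. It had the largest called change between times of the 5 members. LPS gave 1.25, 1.37 and 1.10 at 1 h, 3.27, 2.69 and 1.63 at 2 h, and 2.15, 1.77 and 2.18 at 4 h. The means were 1.24 ± 0.14, 2.53 ± 0.83 and 2.03 ± 0.23 (SD, n = 3), all called, and the 2 h sets spread over more than 1 log2 unit. LPS+IFG gave 0.74, 0.77 and 0.57 at 1 h, 3.46, 2.85 and 2.41 at 2 h, and 2.85, 2.23 and 2.93 at 4 h. Its 1 h mean of 0.69 ± 0.11 was under 2-fold, and those at 2 h (2.91 ± 0.52) and 4 h (2.67 ± 0.38) were called. LPS+2MA had means of 1.35 ± 0.35, 2.88 ± 0.36 and 2.90 ± 0.33 at 1, 2 and 4 h, all called.

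With IFG alone Nfkbie was called at 4 h, and with 2MA alone at 2 and 4 h. The IFG sets gave -0.11, -0.05 and -0.14 for 1 h, 0.39, 0.09 and 0.20 at 2 h, and 1.58, 1.62 and 1.84 at 4 h. The 3 sets at 4 h lay above all sets of the earlier times, and their mean of 1.68 ± 0.14 (SD, n = 3; adjusted p = 1.9e-07 by limma) was a 3.20-fold ratio. The 2MA sets gave -0.29, 0.47 and -0.09 at 1 h, 1.92, 1.08 and 0.71 at 2 h, and 1.63, 0.77 and 0.79 at 4 h. Their means at 2 h (1.24 ± 0.62; adjusted p = 5.8e-04) and 4 h (1.06 ± 0.49; adjusted p = 3.3e-03) were called by limma, and set 1 was the highest at both. Without set 1 the means were 0.90 at 2 h and 0.78 at 4 h, and neither was called. The 2 h mean also lost its call in a fit to its own condition alone (adjusted p = 0.060).

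Bcl3 encodes the atypical nuclear IkB that pairs with p50 and p52. It was raised by LPS and by IFG at all 3 times. LPS gave 1.36, 1.21 and 0.48 at 1 h, 1.68, 2.37 and 1.94 at 2 h, and 2.02, 1.35 and 2.20 at 4 h. IFG gave 1.90, 1.45 and 1.03 at 1 h, 1.87, 2.07 and 1.97 at 2 h, and 1.76, 2.05 and 2.19 at 4 h. The ranges of LPS and IFG overlapped at every time. LPS means were 1.02 ± 0.47, 2.00 ± 0.35 and 1.86 ± 0.45, and IFG means 1.46 ± 0.43, 1.97 ± 0.10 and 2.00 ± 0.22 (SD, n = 3). The LPS call at 1 h was at the 2-fold line: the mean was 0.85 without set 1, 0.92 without set 2 and 0.89 with treated RNA in Cy5 alone. With 2MA, Bcl3 had means of 0.04, 0.55 and 0.56 at 1, 2 and 4 h, and none was called.

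In the combinations Bcl3 reached its highest values. LPS+IFG gave 2.69, 2.62 and 1.86 at 1 h, 3.12, 3.30 and 2.96 at 2 h, and 1.67, 1.67 and 2.48 at 4 h. The 2 h mean of 3.13 ± 0.17 (SD, n = 3) was an 8.73-fold ratio and the highest of its 15 conditions. LPS+2MA gave 0.84, 0.59 and 0.40 at 1 h, a mean of 0.61 ± 0.22 that was not called. It then had means of 2.09 ± 0.43 at 2 h and 2.17 ± 0.06 at 4 h, both called.

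Nfkbiz encodes IkB-zeta and, on the probe used for it, had the largest ratios of the family. With LPS its sets gave 5.43, 4.48 and 5.23 at 1 h, 4.86, 5.12 and 4.88 at 2 h, and 3.63, 4.14 and 3.75 at 4 h. The means were 5.04 ± 0.50, 4.95 ± 0.14 and 3.84 ± 0.26 (SD, n = 3), ratios of 33.0-fold, 31.0-fold and 14.3-fold. LPS+IFG means were 5.04 ± 0.60, 4.88 ± 0.15 and 3.66 ± 0.35 at 1, 2 and 4 h. Those of LPS+2MA were 5.24 ± 0.64, 4.91 ± 0.21 and 4.21 ± 0.31. All 9 conditions with LPS in the treatment were called, and at every time no set without LPS reached the lowest set with it.

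With the single agents other than LPS, Nfkbiz rose less. The 2MA sets at 1 h gave 3.66, 2.10 and 1.26, a mean of 2.34 ± 1.21 (SD, n = 3; adjusted p = 1.4e-07 by limma), the widest spread of any condition of this gene. By 2 h 2MA gave 1.20, 1.45 and 0.38, and by 4 h 0.88, 0.84 and 0.88. IFG means were 0.56, 0.48 and 1.16 at 1, 2 and 4 h, and the last was called (adjusted p = 1.1e-03 by limma). The 2MA mean at 2 h, 1.01 ± 0.56, was called at the 2-fold line (adjusted p = 0.032) and not without set 1 (0.92) or set 2 (0.79).

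A second Nfkbiz probe bore on these smaller ratios. It lacked values in part of the sets (at 1 h of LPS, 2MA and LPS+2MA it had 1 complete set each), so the gene's values above come from the first probe. The second probe gave 3.17 ± 0.09 (SD, n = 3) with LPS at 2 h and 2.25 ± 0.43 at 4 h, lower than the first but high in the same conditions. At 4 h it gave 2.06 with LPS+IFG and 2.51 with LPS+2MA (n = 2 each), below the Nfkbie means of 2.67 and 2.90. With LPS at 4 h it lay above Nfkbie (2.03). With IFG at 4 h it gave 0.25 ± 0.27 (n = 3), with 2MA at 2 h 0.12 ± 0.53 (n = 3), and in its complete set of 2MA at 1 h, set 3, 0.15, where the first probe gave 1.26. In set 1 of 2MA at 1 h, where the first probe gave 3.66, its single array with a value held 1.73. Its own fit called neither IFG at 4 h nor 2MA at 2 h, so those 2 calls for Nfkbiz hold for 1 of its 2 probes. Both were also lost with equal spread of arrays (adjusted p = 0.11 and 0.32 by limma). The first probe had no zeros, but keeping zeros or allowing sets of a single array completed the second probe, which the rule on probes then averaged with the first. The means of both probes were 0.70 with IFG at 4 h and 0.56 with 2MA at 2 h. With zeros kept, 2MA at 1 h came to 1.34 (adjusted p = 0.076 by limma), a value that rests on the second probe and its zeros together. Which probe follows the transcript was not tested.

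**Figure D4:**
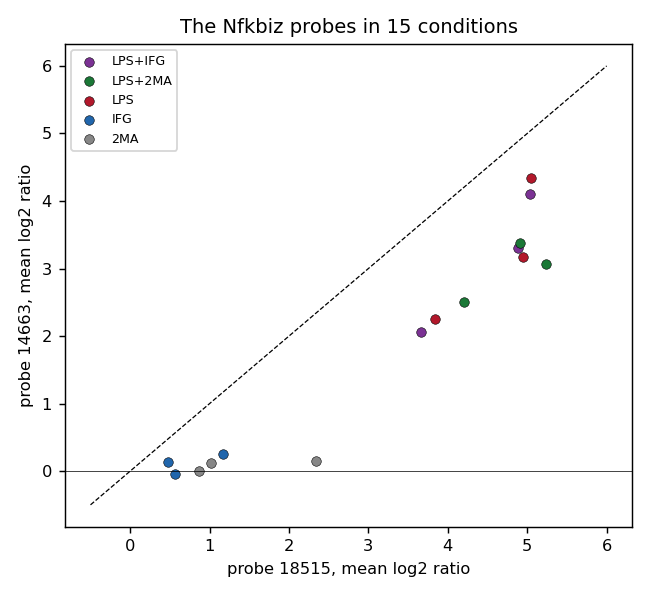
Mean log2 ratio of each of the 15 conditions for Nfkbiz probe 18515 (x axis) and probe 14663 (y axis), coloured by treatment; the dashed line marks equal ratios. Conditions with LPS lie between 3.66 and 5.24 on the first probe and between 2.06 and 4.34 on the second, and the IFG and 2MA conditions lie near 0 on the second.

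The first question was how LPS with IFG or 2MA differed from LPS. The labels give lipid binding protein to LPS alone, so in these comparisons and in those with the sum, the second agent and that protein cannot be told apart. Of 25 tested pairs of a member and a comparison, 2 were called, both of them Bcl3 with LPS+IFG. At 1 h Bcl3 had a mean of 2.39 with LPS+IFG and 1.02 with LPS, a difference of 1.37 (SE 0.28; adjusted p = 3.3e-03 by limma), and all LPS+IFG sets lay above all LPS sets. It was 1 of 5 members tested, where 0.659% of features were higher. At 2 h the means were 3.13 with LPS+IFG and 2.00 with LPS, a difference of 1.13 (SE 0.28; adjusted p = 0.020), and the sets again did not overlap. That was 1 of 4 members, with 0.882% of features higher. At 4 h the difference was 0.08 (SE 0.28), and 0 of 4 members were called (0.806%). The 1 h difference lost its call without LPS set 3 (1.11) or LPS+IFG set 1 (1.22), and the 2 h difference did so without LPS set 1 (0.97), LPS set 3 (1.10), LPS+IFG set 1 (1.13) or LPS+IFG set 2 (1.04), with equal spread of arrays (0.62) and with treated RNA in Cy3 alone (0.93). Whether the difference between LPS+IFG and LPS changed between 1 and 4 h was tested for Bcl3 as a difference of differences, which was -1.29 (SE 0.40; adjusted p = 0.14 by limma) and not called.

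Between LPS+2MA and LPS no member was called, with 0 of 4 tested at every time. The share of features higher was 0.0831% for 1 h, 0.0247% for 2 h and 0.117% for 4 h. By unadjusted p under 0.05, 2 of the 12 differences passed, both at 4 h. They were Nfkbie, 0.86 (SE 0.30; adjusted p = 0.44 by limma), and Nfkbib, 0.53 (SE 0.23; adjusted p = 0.69). Nfkbiz differed between LPS+2MA and LPS by 0.19, -0.05 and 0.36 at 1, 2 and 4 h (SE 0.36 each).

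The second question was whether the log2 ratios of single agents added up. A sum of log2 ratios is a product of fold ratios, so a combination below it need not be below a sum of fold changes. Nfkbie with LPS+IFG at 4 h, for example, was 6.37-fold, beside 4.09-fold with LPS and 3.20-fold with IFG. Sums of fold changes were not tested. On the log2 scale Bcl3 did add up with LPS+IFG at 1 h within the error, 2.39 against a sum of 2.48, a difference of -0.09 (SE 0.35). At 4 h it did not: 1.94 with LPS+IFG stood against 1.86 with LPS and 2.00 with IFG, so the combination was lower than their sum of 3.86 by a log2 difference of -1.92 (SE 0.35; adjusted p = 4.1e-04 by limma). It was 1 of 4 members tested there, beside 1.14% of features lower than the sum. The counts were 0 of 5 at 1 h (0.0% of features) and 0 of 4 at 2 h (0.174%). Nfkbie and Nfkbiz were also below the sum at 4 h, by log2 differences of -1.04 (SE 0.37; adjusted p = 0.19 by limma) and -1.34 (SE 0.44; adjusted p = 0.12). With the set number as a random replicate block both passed the call (adjusted p = 0.0277 for Nfkbie and 0.0347 for Nfkbiz by limma). A fixed block gave smaller values (adjusted p = 5.3e-03 and 0.0140 by limma). Set effects do not cancel in a difference from a sum, so the fixed block leaves out spread between sets.

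For LPS+2MA less the sum of LPS and 2MA, 0 of 4 members were called at each time. The share of features lower was 0.0% for 1 h, 0.00828% for 2 h and 0.0335% for 4 h. Nfkbiz at 1 h was lower than its sum by a log2 difference of -2.15 (SE 0.44; adjusted p = 0.089 by limma): LPS+2MA gave 5.24, and the sum of 5.04 with LPS and 2.34 with 2MA was 7.38. That sum exceeds 6.64, the highest ratio that the deposited values can hold, so a measured ratio could not have reached it.

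**Figure D5:**
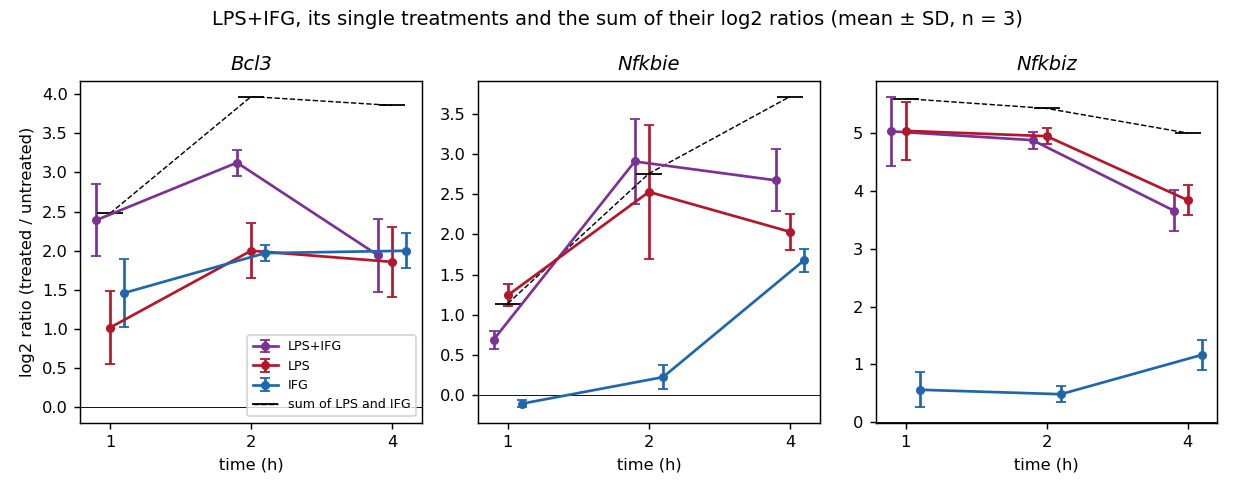
Mean log2 ratio ± SD (n = 3, y axis) of Bcl3, Nfkbie and Nfkbiz at 1, 2 and 4 h (x axis) with LPS+IFG, LPS and IFG, and the sum of the LPS and IFG means (black). Bcl3 with LPS+IFG meets the sum at 1 h and lies with the single treatments at 4 h, and Nfkbiz with LPS+IFG follows LPS at all times.

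The ratios of LPS and IFG differed for 3 members. They were higher with LPS than with IFG for 3 of 5 members at 1 h (0.928% of features), 2 of 4 at 2 h (1.4%) and 1 of 4 at 4 h (2.06%). Nfkbia differed at 1 h, by 2.24 (SE 0.26), although not with exact zeros kept (1.58), and Nfkbie by 1.35 at 1 h and 2.30 at 2 h (SE 0.30 each). Nfkbiz differed at all times, by 4.49, 4.47 and 2.68 (SE 0.36 each). For Bcl3 the LPS minus IFG difference was -0.44, 0.03 and -0.14 at 1, 2 and 4 h (SE 0.28 each), not called.

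LPS ratios were higher than 2MA ratios for 2 of 5 members at 1 h, where 0.621% of features were, for 3 of 4 at 2 h (1.28%) and for 2 of 4 at 4 h (3.05%). Nfkbiz differed by 2.71, 3.94 and 2.97 at 1, 2 and 4 h (SE 0.36 each). Nfkbie differed by 1.21 at 1 h and 1.29 at 2 h (SE 0.30 each), and Bcl3 by 1.45 at 2 h and 1.30 at 4 h (SE 0.28 each). The Nfkbie call at 1 h was lost without any one of 5 of its 6 sets (1.05 to 1.29), and that at 2 h without LPS set 1 (0.92) or 2MA set 3 (1.03). With equal spread of arrays neither was called, nor was Bcl3 at 4 h (0.94). For Nfkbia at 1 h the difference was 1.02 (SE 0.26; adjusted p = 0.072 by limma), which was not called.

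Over time the members went separate ways, with 15 of 67 tested changes called, 10 higher and 5 lower. In all 3 treatments that held LPS, Nfkbie rose from 1 to 2 h and Nfkbiz fell from 1 to 4 h. With LPS, 1 of 4 members was higher at 2 h than at 1 h (0.679% of features), which was Nfkbie, by 1.28 (SE 0.30; adjusted p = 0.0124 by limma). At 4 h against 1 h, 1 of 4 was lower (0.896%), Nfkbiz, which fell by 1.20 (SE 0.36; adjusted p = 0.0189). With IFG, 1 of 5 members was higher at 4 h than at 2 h (0.314%), again Nfkbie, by 1.45 (SE 0.30), and 2 of 5 were higher at 4 h than at 1 h (1.1%), Nfkbie by 1.78 and Nfkbia by 1.20.

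With LPS+IFG, 1 of 4 members was higher at 2 h than at 1 h (0.96% of features), Nfkbie by 2.21 (SE 0.30; adjusted p = 7.3e-06 by limma). From 2 to 4 h 2 of 4 were lower (0.406%), as Bcl3 fell by 1.19 (SE 0.28) and Nfkbiz by 1.22 (SE 0.36). From 1 to 4 h 1 of 5 was higher (3.08%), Nfkbie by 1.98, and 1 of 5 lower (1.65%), Nfkbiz, which fell by 1.37. With LPS+2MA, 2 of 4 were higher at 2 h than at 1 h (0.795%), Nfkbie by 1.53 and Bcl3 by 1.47. From 1 to 4 h 2 of 4 were higher (3.52%), Bcl3 by 1.56 and Nfkbie by 1.54, and 1 of 4 was lower (1.52%), Nfkbiz, which fell by 1.03 (SE 0.36; adjusted p = 0.041). With 2MA 0 of 5 members were called in each of the 3 pairs of times, where 0.0% of features were called in either direction from 1 to 2 h and from 2 to 4 h, and 0.0414% higher and 0.108% lower from 1 to 4 h. Nfkbie differed by 1.21 at 2 h over 1 h (adjusted p = 0.18 by limma) and 1.03 at 4 h over 1 h (adjusted p = 0.2), and Nfkbiz by -1.47 at 4 h over 1 h (SE 0.36; adjusted p = 0.073). All 3 passed the call in a fit to all arrays with a dye term (adjusted p = 2.2e-03, 7.7e-03 and 0.040 by limma). The same fit ended the call of the Nfkbiz fall with LPS+2MA from 1 to 4 h (adjusted p = 0.062 by limma). That fit took arrays as units, with a single within-set correlation of 0.299 for all features. For Nfkbie with 2MA at 2 h the arrays of a set lay closer to each other than the sets did. They gave 2.02 and 1.81 in set 1, 1.21 and 0.95 in set 2, and 0.83 and 0.60 in set 3. The p-values of that fit may therefore be too small.

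Several of these changes over time rest on single sets. Nfkbie with LPS from 1 to 2 h was 0.91 without set 1 of 2 h, 1.21 without set 2 of 2 h or without set 3 of 1 h, and none of these was called. Nfkbiz with LPS from 1 to 4 h lost its call without any one of 4 of its 6 sets (-1.01 to -1.16), with LPS+IFG from 2 to 4 h without any one of 5 of 6 (-1.07 to -1.30), and with LPS+2MA from 1 to 4 h without any one of 4 of 6 (-0.82 to -1.04). Bcl3 with LPS+IFG from 2 to 4 h was -1.05 without set 1 of 4 h, short of the call. With equal spread of arrays the Nfkbie changes with LPS (1.10) and LPS+2MA (1.27) from 1 to 2 h and with IFG from 2 to 4 h (1.29) were not called. The same setting ended the calls of Nfkbie with LPS+2MA from 1 to 4 h (0.87) and of Nfkbiz with LPS+IFG from 2 to 4 h (adjusted p = 0.4 by limma). With exact zeros kept the Nfkbia change with IFG (1.01) was not called. The 4 Nfkbiz changes lost their calls under that setting too, where the second probe was averaged in. With treated RNA in Cy3 alone these 4 were not called either, nor were Nfkbie with LPS from 1 to 2 h and Bcl3 with LPS+IFG from 2 to 4 h. Cy5 alone ended the calls of Nfkbiz from 1 to 4 h with LPS (adjusted p = 0.088) and LPS+2MA (0.18), and of Nfkbia with IFG (0.054, all by limma).

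The order of the condition means differed between members. Nfkbiz had its 9 conditions with LPS in the treatment first, from 5.24 (LPS+2MA at 1 h) to 3.66 (LPS+IFG at 4 h), then 2MA at 1 h and the remaining IFG and 2MA conditions. Neighbours in that order differed by less than their SDs among the first 6. For Nfkbie LPS+IFG at 2 h (2.91), LPS+2MA at 4 h (2.90), LPS+2MA at 2 h (2.88), LPS+IFG at 4 h (2.67) and LPS at 2 h (2.53) came first, each within 1 SD of the next, and IFG and 2MA at 1 h came last. Bcl3 was led by LPS+IFG at 2 h (3.13) and 1 h (2.39), and 2MA held its last 3 places. Across the condition means Nfkbib and Nfkbie were the most alike pair of members (Pearson r = 0.933, 15 conditions), and Nfkbia and Bcl3 the least (r = 0.192, 9 conditions). The condition means share arrays between genes and the same stimuli, so these r describe the conditions and carry no test.

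Among 980 genes called in at least 1 condition and measured in all 15 (989 for the 9 conditions of Nfkbia), those with the most similar condition means were named for each member. Nfkbiz was closest to Tnf, the inflammatory cytokine (r = 0.975), Ppp1r15a, a stress-induced phosphatase subunit (0.969), and Rel, an NF-kB subunit (0.966). Nfkbie was closest to Ocstamp, which is needed for fusion of osteoclasts (0.962), Nfkb2, the precursor of p52 (0.940), and Fem1b (0.933). Bcl3 was closest to Parp14 (0.904), Irf1, an interferon-induced transcription factor (0.901), and Gpr132 (0.899). Nfkbib was closest to Nfkbie (0.933), Clic4 (0.933) and Tox4 (0.919), and Nfkbia, over its 9 conditions, to Blcap (0.949), Tnf (0.945) and Skil, a repressor of SMAD signalling (0.943).

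Other genes of the pathway were counted by the same rule. Beside these counts, 0.156 to 1.73% of all features were higher in the IFG and 2MA conditions. In the conditions with LPS in the treatment the share was 1.05 to 4.59%. Such shares give few or no calls in lists of this size, so a count of 0 does not set a list apart. Of 4 measured NF-kB subunits, 3 rose with LPS at each of 1, 2 and 4 h, and 3 did so with LPS+2MA. With LPS+IFG 2 rose at 1 h and 3 at 2 and 4 h. Relb, which dimerises with p52, reached 1.90 ± 0.09 (SD, n = 3) with LPS+2MA at 2 h, Rel reached 1.72 ± 0.22 there, and Nfkb2 reached 2.41 ± 0.14 with LPS+2MA at 4 h. With IFG the count was 0 at 1 and 2 h and 1 at 4 h, which was Relb at 1.27, and 2MA raised 0 of 4 at any time.

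Of the machinery that removes IkB proteins, 0 of 6 measured genes of the IkB kinase and its ubiquitin ligase were called in any of the 15 conditions, where 0.156 to 4.59% of features were higher, a share that gives few or no calls among 6 genes. On the adjusted p alone at most 2 passed in a direction, and their median ratio lay between -0.15 and 0.07. Of 10 genes of the LPS receptor and its proximal signalling, at most 1 in each direction was called in a condition. Myd88, the adaptor of Toll-like receptors, rose with LPS+IFG at 2 h (1.16) and 4 h (1.45), LPS at 4 h (1.27) and LPS+2MA at 4 h (1.32). Tlr4, the LPS receptor, fell with LPS+IFG at 4 h (-1.26 ± 0.07, SD, n = 3).

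Other negative regulators of NF-kB rose with LPS as well. Of 5 measured, 3, 4 and 4 rose with LPS at 1, 2 and 4 h, 3, 4 and 4 with LPS+IFG, and 3 at each time with LPS+2MA. IFG raised 0, 0 and 2, and 2MA none. Traf1, an adaptor of tumour necrosis factor receptors, reached 2.96 ± 0.31 (SD, n = 3) with LPS+2MA at 2 h. Tnfaip3, the ubiquitin-editing enzyme A20, reached 2.54 ± 0.25 with LPS+2MA at 4 h, and Tnip1, a partner of A20, reached 2.38 ± 0.42 with LPS at 2 h.

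A list of genes drawn up here as linked to IkB-zeta or Bcl3 in mouse macrophages was counted next. Whether these genes depend on either protein, and in which direction, was not tested. Of 7, 2 rose with LPS at 1 h and 4 at 2 and 4 h, while the counts with LPS+IFG were 2, 3 and 3 and those with LPS+2MA 2, 4 and 4. IFG and 2MA raised 0 of 7 at every time, where 0.156 to 1.73% of features were higher, a share that gives few or no calls among 7 genes. Il6, the interleukin, had means of 0.14, 2.01 and 4.50 with LPS at 1, 2 and 4 h and reached 5.50 ± 0.29 (SD, n = 3) with LPS+2MA at 4 h. Saa3, an acute phase protein, reached 5.28 ± 0.07 with LPS+IFG at 4 h, and Csf3, a granulocyte growth factor, 4.18 ± 0.30 with LPS at 4 h. At 1 h of LPS, when Nfkbiz already stood at 5.04, Csf3 was at 1.92 and Saa3 at 1.68.

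Early NF-kB targets rose in 5 of 6 tested genes with LPS at 1 h and in 4 of 5 at 2 and 4 h. With 2MA the counts were 3, 4 and 1 of 6, and with IFG 0, 1 and 2 of 7. In the combinations they were 4 of 5, 5 of 6 and 5 of 6 with LPS+IFG and 4 of 5 at each time with LPS+2MA. Il1b reached 5.25 ± 0.40 (SD, n = 3) with LPS+2MA at 4 h, Cxcl2, a chemokine for neutrophils, 4.83 ± 0.14 (n = 2) with LPS+IFG at 2 h, and Ptgs2, the inducible cyclooxygenase, 4.55 ± 1.06 (n = 3) with LPS+IFG at 4 h. Of 12 measured markers of fibroblasts, T cells, B cells and epithelium none was called in any condition, with medians between -0.04 and 0.08. With 0.156 to 4.59% of features higher, few or no calls come from 12 genes, so this count does not bear on which cells were present. Of 3 or 4 tested macrophage markers, Csf1r, the receptor for macrophage colony-stimulating factor, fell at 4 h with LPS+IFG (-1.29 ± 0.25) and LPS+2MA (-1.08), and no other was called.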

How the data were processed

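The deposited values are log2 ratios between the dyes of an array, as their signs and range show, and each array had a median of 0. Image reading, background handling and normalization are not given in the sources used here. Members were found by probe symbol (13738 of 16281 probes named a single gene). The sign was turned where Cy3 labelled the treated RNA, exact zeros were set missing, and the dye-swapped arrays of a set were averaged where both held a value. Probes of a gene were averaged where each had at least 2 of 3 replicates in every condition; otherwise the probe with most values was kept. This left 12518 features (10478 genes).

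A mean per condition was fitted to the 45 replicates of a feature by least squares in R 4.3.3, and limma 3.58.1 moderated the variances (prior SD 0.187 with 5.81 degrees of freedom). The fit was run on simulated data with independent noise in every replicate. Sets of the same number deviated together in the real data, so that run does not give error rates for them. A feature was tested where each condition of the comparison had at least 2 of 3 replicates. The 48 comparisons were each condition against 0 (15), combination less LPS (6), combination less the sum of single treatments (6), times (15), LPS less IFG (3) and LPS less 2MA (3). Tests were two-sided, with Benjamini-Hochberg adjustment over all features of a comparison; called means an adjusted p under 0.05 and at least 2-fold. The spread between replicates had a median residual SD of 0.200, and the number of arrays limits the precision. Tables and figures used Python 3.11.15 with matplotlib 3.10.9, pandas 2.3.3 and numpy 2.4.6.

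Within a time, sets of the same number deviated together from their condition means: r was above 0.1 in 86 of 90 pairs (median 0.425) and in 18 of 18 between LPS and a combination (lowest 0.130), so the set as a block was an alternative. Further alternatives were other filters, zeros kept, equal spread of arrays, single dye orientations, a dye term, single probes, fewer conditions in the fit, robust moderation and leaving out a set.

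The members, pathway lists and tests were chosen with earlier results of these data known. The rule named all members, the 3 genes most like each, and up to 3 called genes with the largest ratios from each pathway list.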

Additional observations from a re-analysis of the deposited data

Results flagged for a closer look

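Ratios of the same treatment differed between times in 15 cases that limma's test of the change itself called. Nfkbie accounted for 7 of them, all higher at the later time: with LPS at 2 h over 1 h by 1.28, with IFG at 4 h over 2 h by 1.45 and over 1 h by 1.78, with LPS+IFG at 2 h over 1 h by 2.21 and at 4 h over 1 h by 1.98, and with LPS+2MA at 2 h over 1 h by 1.53 and at 4 h over 1 h by 1.54. Nfkbiz accounted for 4, all lower at 4 h: with LPS against 1 h (-1.20), with LPS+IFG against 2 h (-1.22) and 1 h (-1.37), and with LPS+2MA against 1 h (-1.03). Bcl3 was lower at 4 h than at 2 h with LPS+IFG (-1.19), and higher with LPS+2MA at 2 h (1.47) and 4 h (1.56) than at 1 h. Nfkbia with IFG was higher at 4 h than at 1 h by 1.20. Each time had its own untreated RNA, and a change in the untreated cells between times was not tested.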

How the results depend on the processing

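Of 70 called values of members, taken over 839 combinations with an alternative setting, 791 kept their direction and call, 46 kept the direction and lost the call, and 2 reversed. The reversals were Nfkbib with treated RNA in Cy5 alone, at -0.715 with LPS+IFG and -0.341 with LPS+2MA at 4 h. The cause was not tested. The 39 calls against untreated cells became 37 to 40 when a set was left out, and stayed within 1.5 times under the other settings. Counted in either direction, they were 46 with Cy5 alone and 54 with Cy3 alone. With Cy5 alone these included Nfkbib calls below 0, at -2.26 with IFG and -2.21 with 2MA at 1 h. With Cy3 alone, conditions in which Nfkbib had not been called gave calls above 0 (1.78 to 2.73). These totals therefore hold opposite directions. The 2 calls of a combination against LPS became 1 with equal spread of arrays and 1 with treated RNA in Cy3 alone, and 1 to 2 without a set. The single call against the sum of single treatments became 2 with equal spread, 4 with Cy5 alone, 3 with Cy3 alone, 3 with a dye term and 2 with only the compared conditions in the fit, and 1 to 2 without a set. The calls added by a single dye orientation were all of Nfkbib, the probe with the large dye difference. With Cy5 alone they lay above the sum (2.15 to 2.45), and with Cy3 alone below it (-1.77 and -2.24). With the replicate block, random or fixed, the single call against the sum became 4, and the combinations against LPS stayed at 2. One of the additional calls, Nfkbiz with LPS+2MA at 1 h (-2.15), comes from sets that do not all pair. Its adjusted p by limma was 9.5e-03 with the random block and 2.8e-03 with the fixed block. For a difference from a sum, the fixed block leaves out spread between sets. The block changed no other call between conditions at a time. The 15 calls over time became 9 with Cy3 alone and 13 to 17 without a set. LPS against IFG gave 5 to 6 and LPS against 2MA 6 to 8 calls without a set. Of 567 tested pairs of a pathway gene and a condition, 143 were called, and 136 with equal spread. Of all features, 0.156 to 4.59% were higher in a condition. The 567 pairs pool lists with many calls and a list with none, so the total describes no single list. Allowing sets with a single array, and the change of the combination effect over time, were added after the data were seen. Zeros kept, or single arrays allowed, also averaged the second Nfkbiz probe into that gene. Only complete values, or at least 1 value in every condition, left Nfkbia out.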
